A study of Homo sapiens with 7 samples.

Results

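The enzymes described here are those with which cells modify and dispose of foreign chemicals and many of their own steroids, vitamins and lipids. They are the cytochrome P450 enzymes (CYP), the UDP-glucuronosyltransferases (UGT), the glutathione transferases (GST and the membrane-bound MGST) and the sulfotransferases (SULT). Members were every row of the deposited count table whose gene symbol belongs to one of these families by its name, which gave 57 rows and 56 genes among 14647 rows and 14535 genes. Only CYP2D7 stood in more than 1 row, as 2 identical rows that were summed. The list holds 2 pseudogenes, CYP2D7 and GSTM2P1. Genes entered it by name and not by their values, but the families were chosen with earlier results of these data known.

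A549 cells, a line derived from a human lung adenocarcinoma, were treated in either of 2 ways for 24 h. In 3 libraries (doxorubicin 1, 2 and 3) the cells received 100 nM doxorubicin, a topoisomerase II poison. In the other 4 (stretch 4, 5, 6 and 7) they were stretched cyclically by 15% at 15 cycles per min. The cells were stained for β-galactosidase, a marker of senescence, 6 days later, and only sorted positive cells entered the libraries of either group. Both groups are thus treated cells selected by the same stain, and no untreated cells were analysed here, so that a gene called higher in doxorubicin could as well be called lower in stretch. All libraries come from a single cancer line, and the labels do not say whether replicates were separate cultures, so p-values measure the spread between these libraries only. In such bulk samples a share of cells and the RNA per cell cannot be told apart.

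P450 enzymes are haem proteins of the endoplasmic reticulum or mitochondrion that insert an oxygen atom into a substrate, using electrons passed on by a reductase. UGT, GST and SULT enzymes then attach glucuronic acid, glutathione or sulfate, which makes a product more soluble, and membrane pumps export it. P450 families with low numbers mostly handle drugs and fatty acids, whereas those with higher numbers mostly make or break down sterols, steroid hormones, vitamin D and retinoic acid. Transcription of many of these genes follows ligand-activated receptors, such as the aryl hydrocarbon receptor AHR, the retinoic acid and vitamin D receptors, and the oxidant-responsive factor NRF2. A549 cells carry an inactive form of KEAP1, the repressor of NRF2, and are known for high expression of NRF2 targets.

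The promoters of 3 members are shown. UGT1A7 and CYP26B1 were the only members past the threshold of the test. CYP26A1, a paralog of CYP26B1 with counts too low to be tested, was added because its levels lay on the same side. Each promoter is the 250 bases before a transcription start of RefSeq (GRCh38.p14), printed 5′ to 3′ on the gene's strand. Capitals mark any match to 4 motifs searched on both strands. These were GCGTG, the core bound by AHR with its partner ARNT, TGACNNNGC, the core of the antioxidant response element bound by NRF2, and the direct repeats known as DR3 and DR5, bound by the vitamin D and retinoic acid receptors. UGT1A7 is at chr2:233681651-233681900 on the plus strand, CYP26B1 at chr2:72147863-72148112 on the minus strand, and CYP26A1 at chr10:93073643-93073892 on the plus strand.
UGT1A7: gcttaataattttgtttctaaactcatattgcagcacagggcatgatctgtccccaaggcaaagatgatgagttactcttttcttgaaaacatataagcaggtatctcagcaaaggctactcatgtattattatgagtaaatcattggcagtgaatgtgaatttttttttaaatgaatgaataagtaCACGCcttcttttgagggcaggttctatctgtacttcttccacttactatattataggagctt
CYP26B1: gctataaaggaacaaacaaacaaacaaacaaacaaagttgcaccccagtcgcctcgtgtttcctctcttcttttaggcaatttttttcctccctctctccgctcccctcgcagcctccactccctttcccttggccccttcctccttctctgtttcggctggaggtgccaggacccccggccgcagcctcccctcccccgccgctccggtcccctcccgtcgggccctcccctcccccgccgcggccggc
CYP26A1: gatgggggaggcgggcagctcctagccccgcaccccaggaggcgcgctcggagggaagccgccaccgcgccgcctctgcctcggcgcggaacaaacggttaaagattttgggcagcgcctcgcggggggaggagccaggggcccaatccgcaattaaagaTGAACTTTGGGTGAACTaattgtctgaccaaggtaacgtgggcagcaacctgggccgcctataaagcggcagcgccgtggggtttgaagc

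The window of UGT1A7 held 1 GCGTG core, on the minus strand, 63 to 59 bases before the start. For CYP26A1, with 2 RefSeq starts, the window shown was picked because it had more matches than the other. It held a DR5 repeat, on the minus strand, 90 to 74 bases before the start. The window of CYP26B1 held none of the 4 motifs. GCGTG stood in 32.2% of all 35116 windows of this length and in 13 of 49 windows from the 42 members with an entry. TGACNNNGC stood in 10.9% of all windows and in 8 of 49 from members. DR5 stood in 0.282% of all windows and in 1 of 49, the one of CYP26A1 shown. DR3 stood in 0.202% of all windows and in none of the 49. Such matches are letters in a window and were not measured as binding.

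Total counts ran from 2611766 to 4644650 in the doxorubicin libraries and from 5636494 to 7419798 in the stretch libraries. The kit amplifies a short stretch of each transcript, so that counts do not scale with transcript length, and levels of different genes are not compared. Levels are given as CPM (counts-per-million), on library sizes scaled by TMM factors, which bring the bulk of the genes to a common level. EIF4A2 took 10.8% to 30.6% of doxorubicin counts and 1.67% to 2.87% of stretch counts, most in doxorubicin 2, the shallowest library. A level of 3 counts, taken as detection, was 1.19, 2.59 and 0.567 CPM in doxorubicin 1, 2 and 3 and between 0.321 and 0.401 CPM in stretch. Log-CPM correlated across genes at 0.754 to 0.884 between doxorubicin libraries and at 0.939 to 0.978 between stretch libraries. Between a doxorubicin and a stretch library the correlation was 0.7235 to 0.941. The closest such pair was thus more alike than any pair of doxorubicin libraries. Keratins, EPCAM, CDH1 and the reductases AKR1B10 and AKR1C1, 7 markers of these epithelial cells, summed to 3415 to 6210 CPM in doxorubicin and 3082 to 3752 CPM in stretch. Among them KRT18 was higher in doxorubicin (log2 fold change -2.20, adjusted p = 0.0199 by edgeR), and EPCAM had 1.79 (adjusted p = 0.0574 by edgeR). Of 7 fibroblast markers, 5 were in the table and summed to 17.0 to 42.4 CPM in doxorubicin and 14.4 to 15.0 CPM in stretch. Of 5 leukocyte markers, 3 were in the table (CD14, CD68 and LYZ) and summed to 100.2 to 139 CPM against 57.5 to 61.0 CPM. CD68, a lysosomal protein of macrophages and other cells, was higher in doxorubicin (log2 fold change -2.02, adjusted p = 0.0158 by edgeR), while CD14 and LYZ had -0.03 and 0.06. The defining leukocyte genes PTPRC and CD3E were not analysed here, and of 4 endothelial markers only CDH5 was in the table, at 0 in all doxorubicin libraries and at most 0.963 CPM in stretch. The part of these markers, and of the EIF4A2 share, in the results was not tested.

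Summed over the 56 genes, the enzymes stood at 2498, 1922 and 2633 CPM in doxorubicin 1, 2 and 3. In stretch 4, 5, 6 and 7 they stood at 3365, 4413, 4442 and 4095 CPM, so that every stretch library lay above every doxorubicin library. That gap was carried by CYP24A1 and MGST1. The other 54 genes summed to 1148, 993 and 891 CPM in doxorubicin and 829, 974, 959 and 881 CPM in stretch, and these ranges overlapped. CYP24A1 had the most counts of the 56 genes in every library. It made up 34.5%, 42.3% and 48.5% of the enzymes' counts in doxorubicin and 53.0% to 58.1% in stretch. These are shares of counts and not a comparison of RNA levels between genes. Without scaling by TMM factors, the enzymes took 0.0851% to 0.300% of the counts of a doxorubicin library and 0.447% to 0.556% of those of a stretch library.

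**Figure D1:**
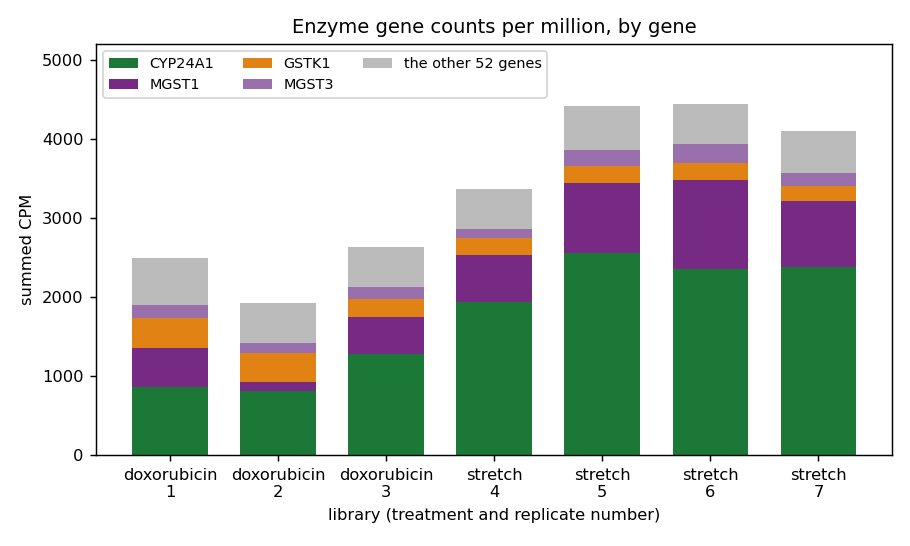
Summed level in CPM (vertical axis, TMM-scaled) of the 56 enzyme genes in each of the 7 libraries (horizontal axis), with the bar divided into CYP24A1, MGST1, GSTK1, MGST3 and the other 52 genes. The doxorubicin bars reach 1922 to 2633 CPM and the stretch bars 3365 to 4442 CPM, and the CYP24A1 and MGST1 segments are larger in each stretch bar, while the rest of the bars, 891 to 1148 CPM against 829 to 974 CPM, overlap.

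Of the 56 members, 29 passed the filter on low counts and were tested, as part of a fit over 11230 genes. The test was the quasi-likelihood test of edgeR, adjusted over all of these by the Benjamini-Hochberg method, and 2 members passed an adjusted p of 0.05. Both were higher in doxorubicin, where 1.97% of all tested genes were called, and none was higher in stretch, where 0.356% were called (2.32% for both directions). At an unadjusted p under 0.05 there were 8 members, 27.6% of those tested, against 23.2% of all tested genes. The group ranges of 8 members did not overlap, 4 higher in doxorubicin and 4 in stretch, also 27.6%. Over all tested genes that share was 21.4%, 9.88% higher in doxorubicin and 11.5% in stretch. The members' shares at an unadjusted p and without overlap were thus near those of the table as a whole. Their median log2 fold change (stretch minus doxorubicin) was -0.09, from -2.34 to 1.32, and that of all tested genes 0.02. On library totals alone, without TMM factors, these medians became 0.67 and 0.71, so that the side on which a gene lies is relative to a scaling that places most genes near 0. DESeq2 called 6 of 47 members (10.03% of all genes it tested) and limma-voom the same number as edgeR, 2 of 29 (1.66% of all genes). Without doxorubicin 3, edgeR called 10 of 33 members, 6 higher in doxorubicin and 4 in stretch, where 32.2% of all genes were called.

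**Figure D2:**
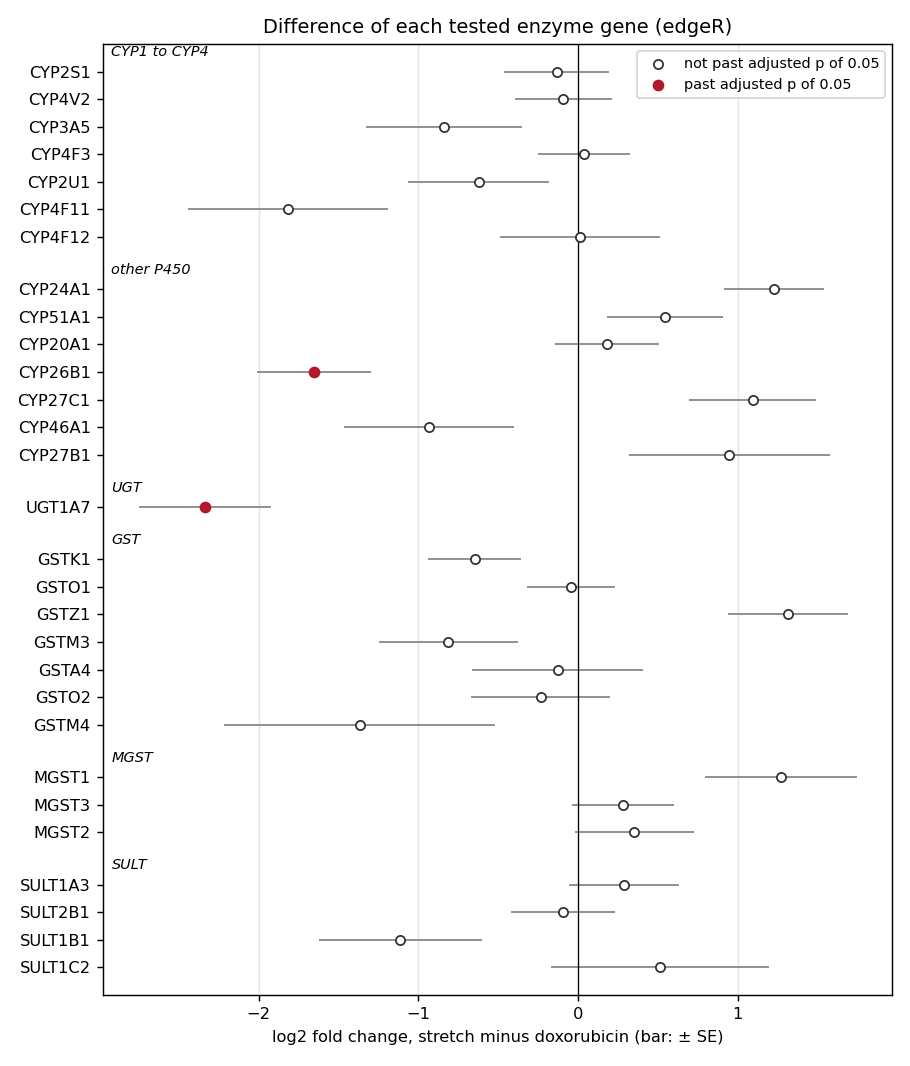
Log2 fold change, stretch minus doxorubicin (horizontal axis), of the 29 tested enzyme genes, grouped by family, with bars of 1 SE from edgeR and 3 doxorubicin against 4 stretch libraries. The 2 filled points, UGT1A7 at -2.34 and CYP26B1 at -1.65, are those past an adjusted p of 0.05, and the others spread on both sides of 0.

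The P450 enzymes of drugs and fatty acids, families CYP1 to CYP4, had no member past the threshold. Among its 17 members 7 were tested, 5 on the doxorubicin side and 2 on the stretch side, with a median log2 fold change of -0.13. At an unadjusted p under 0.05 there was 1, CYP4F11, and DESeq2 called the same gene. CYP4F11, a hydroxylase of fatty acids and of vitamin K, stood at 8.34, 16.4 and 4.54 CPM in doxorubicin 1, 2 and 3 and at 0.668, 3.96, 1.73 and 3.77 CPM in stretch 4 to 7. All doxorubicin values lay above all stretch values, with the lowest doxorubicin value close to the highest of stretch. The log2 fold change was -1.82 (SE 0.63, adjusted p = 0.126 by edgeR), and -1.28 without doxorubicin 2.

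CYP3A5, a drug-metabolising P450 that lung cells express, stood at 37.3, 6.92 and 43.9 CPM in doxorubicin and 12.4, 19.3, 21.8 and 14.2 CPM in stretch. Doxorubicin 1 and 3 lay above all stretch libraries and doxorubicin 2, with 8 counts, below all of them. CYP3A5 had a log2 fold change of -0.84 (SE 0.49, adjusted p = 0.320 by edgeR). CYP2S1, an extrahepatic P450 that AHR can induce, stood at 58.0, 40.6 and 28.5 CPM against 49.1, 40.9, 33.5 and 30.6 CPM, and the groups lay within each other's range. CYP4V2, a fatty acid hydroxylase of the eye and other tissues, stood at 39.3, 22.5 and 46.5 CPM against 35.5, 31.9, 36.3 and 33.7 CPM, again with overlap. CYP4F3, which inactivates leukotriene B4, varied little, at 15.1, 13.8 and 14.4 CPM in doxorubicin and 15.5, 13.5, 16 and 14.5 CPM in stretch. CYP4F3 had a log2 fold change of 0.04 with an SE of 0.29. Of the remaining 2 tested, CYP2U1 and CYP4F12 had log2 fold changes of -0.62 and 0.01, and both overlapped; that of CYP4F12 was 0.61 without doxorubicin 3.

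CYP1A1, the classical target of AHR, was at the edge of detection and was not tested. It had 6, 3 and 1 counts in doxorubicin 1, 2 and 3 and 3, 1, 4 and 1 counts in stretch 4 to 7. CYP1A2 had 0 counts in all doxorubicin libraries and 6, 4, 4 and 1 counts in stretch, levels of at most 0.801 CPM that lie below the detection level of doxorubicin 1 and 2, while only that of stretch 4 lies above the detection level of doxorubicin 3. The other CYP1 to CYP4 genes left untested included CYP2D6, CYP2D7, CYP2E1, CYP2J2, CYP2W1, CYP3A7 and CYP3A43, with mean levels between 0.0996 and 1.48 CPM. CYP1B1, often studied beside CYP1A1, was not analysed here.

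Among P450 enzymes of sterols, vitamins and unknown substrates, CYP26B1 was lower in stretch than in doxorubicin. Of 11 members 7 were tested, 5 on the stretch side and 2 on the doxorubicin side. CYP26B1 (chromosome 2, 72129238 to 72148038), a hydroxylase that clears retinoic acid, stood at 13.9, 13.0 and 11.3 CPM in doxorubicin 1, 2 and 3 and at 2.80, 5.56, 3.68 and 3.98 CPM in stretch 4 to 7. The groups were well apart, with the lowest doxorubicin library at 11.3 CPM and the highest stretch library at 5.56 CPM. It was 3.14-fold higher in doxorubicin, with a log2 fold change of -1.65 (SE 0.36, adjusted p = 0.0413 by edgeR). The doxorubicin values rest on 35, 15 and 60 counts. The call ended without doxorubicin 1, where the adjusted p was 0.163 by edgeR, and without stretch 4, 5, 6 or 7, where it was 0.0815, 0.122, 0.179 and 0.178. It also ended with doxorubicin 3 as the only doxorubicin library (adjusted p = 0.133 by edgeR), without a filter on low counts (0.0547) and on library totals alone (0.234). On library totals the log2 fold change was -0.91, and in the other alternatives it lay between -1.86 and -1.48. CYP26A1, the paralog with the DR5 repeat shown above, was not tested, at 3, 1 and 9 counts in doxorubicin and 4, 6, 2 and 6 in stretch. In CPM its ranges did not overlap, at 0.865 to 1.70 against 0.216 to 0.645, but the values of doxorubicin 1 and 2 were at or below the detection level.

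CYP24A1 (chromosome 20, 54153449 to 54173973), the mitochondrial hydroxylase that starts the breakdown of active vitamin D, stood at 862, 813 and 1277 CPM in doxorubicin 1, 2 and 3. In stretch 4, 5, 6 and 7 it stood at 1936, 2553, 2355 and 2378 CPM, so that all stretch values lay above all doxorubicin values. Means were 984 ± 255 CPM (SD, n = 3) after doxorubicin and 2305 ± 262 CPM (SD, n = 4) after stretch. The log2 fold change of 1.23 (SE 0.31) did not pass, with an adjusted p of 0.0643 by edgeR. It passed by DESeq2, with an adjusted p of 0.000392, and without doxorubicin 3 by edgeR, with an adjusted p of 0.00256. Over 14 alternatives its log2 fold change was between 0.87 and 1.85 and its adjusted p between 0.000392 and 0.213. CYP27B1, which makes the active hormone that CYP24A1 destroys, had 2, 0 and 12 counts in doxorubicin and 26, 18, 20 and 29 in stretch. Its levels of 0.794, 0 and 2.27 CPM overlapped those of stretch, 1.93 to 3.47 CPM, and the log2 fold change was 0.95 (SE 0.63), or 2.31 without doxorubicin 3 (adjusted p = 0.0672 by edgeR). The receptor gene VDR stood at 3.97, 6.92 and 2.27 CPM against 2.70 to 3.34 CPM, with a log2 fold change of -0.35 (SE 0.47), and its range in doxorubicin enclosed that of stretch.

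CYP27C1, which desaturates vitamin A, stood at 2.78, 2.59 and 3.59 CPM in doxorubicin and 5.34, 5.67, 7.14 and 8.39 CPM in stretch. Its ranges did not overlap, and its log2 fold change of 1.09 (SE 0.40, adjusted p = 0.140 by edgeR) did not pass. CYP51A1, the demethylase of cholesterol synthesis, stood at 15.5, 41.5 and 28.5 CPM against 46.6, 30.5, 47.5 and 39.5 CPM. Its doxorubicin libraries were spread wider than those of stretch and overlapped them, with a log2 fold change of 0.55 (SE 0.36). Of the distinct words of 31 bases in the GENCODE transcripts of CYP51A1, 80.0% also stand in transcripts of another gene, 78.7% in AC000120.2. The identity of its reads is thus uncertain. CYP20A1, an orphan enzyme, and CYP46A1, which makes a brain oxysterol, had log2 fold changes of 0.18 and -0.93 and overlapped, and that of CYP46A1 was -0.07 without doxorubicin 3. Of the untested members, CYP7B1, an oxysterol hydroxylase, had 8, 2 and 20 counts in doxorubicin and 5 to 7 in stretch. Its ranges, 1.73 to 3.78 CPM against 0.645 to 0.749 CPM, did not overlap, but the value of doxorubicin 2 was below the detection level of that library. CYP7B1 was called by DESeq2 and, without doxorubicin 2, by edgeR. CYP17A1 and CYP21A2, enzymes of steroid hormone synthesis, had at most 25 and 2 counts in any library.

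**Figure D3:**
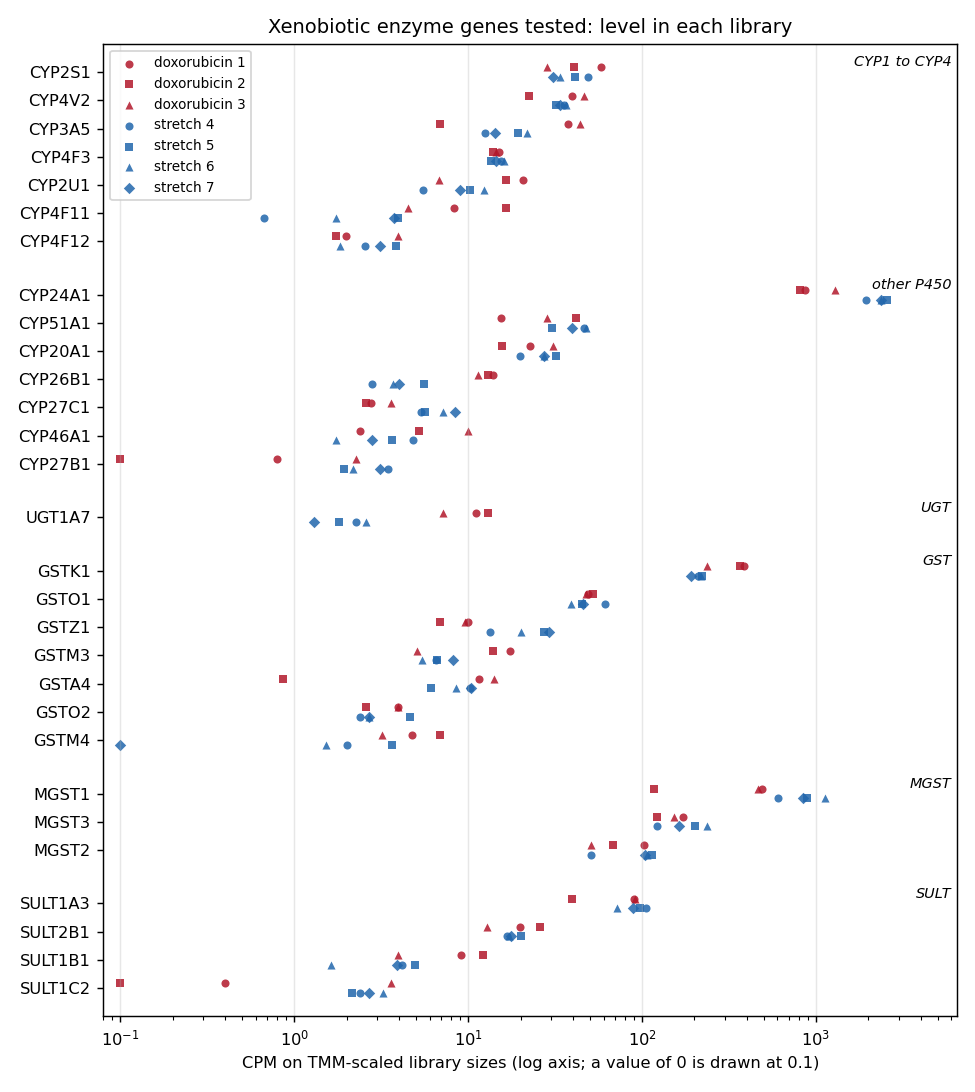
Level of each of the 29 tested enzyme genes in every library, as CPM on TMM-scaled library sizes (horizontal log axis, a value of 0 drawn at 0.1), with doxorubicin libraries in red above and stretch libraries in blue below on each gene's line. The red and blue points of UGT1A7, CYP26B1 and CYP24A1 stand apart, whereas those of CYP4F3 and GSTO1 coincide, and the red squares of doxorubicin 2 lie farthest out for CYP3A5, GSTA4 and MGST1.

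UGT1A7 was the one glucuronosyltransferase tested, of 6 in the table, and it was lower in stretch than in doxorubicin. UGT1A7 (chromosome 2, 233681938 to 233773299) conjugates polycyclic aromatic metabolites and drugs in tissues outside the liver. It stood at 11.1, 13.0 and 7.18 CPM in doxorubicin 1, 2 and 3 and at 2.27, 1.82, 2.59 and 1.29 CPM in stretch 4 to 7. Every doxorubicin library lay above every stretch library, with doxorubicin 3 the lowest of its group. It was 5.05-fold higher in doxorubicin, with a log2 fold change of -2.34 (SE 0.41, adjusted p = 0.0223 by edgeR), the lowest adjusted p of all members. These levels rest on 28, 15 and 38 counts in doxorubicin and 17, 17, 24 and 12 counts in stretch. The call ended without doxorubicin 1, at an adjusted p of 0.103 by edgeR, and without stretch 4, 5, 6 or 7, at 0.0598, 0.117, 0.0995 and 0.111. It also ended on library totals alone, at a log2 fold change of -1.53 and an adjusted p of 0.146 by edgeR, and with doxorubicin 3 as the only doxorubicin library, at 0.109. It held without doxorubicin 2 and without doxorubicin 3, and over 14 alternatives the log2 fold change was between -2.54 and -1.53.

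The identity of the UGT1A7 reads is uncertain, because the UGT1A genes are first exons spliced to the same downstream exons. Of the distinct words of 31 bases in the GENCODE transcripts of UGT1A7, 47.1% also stand in transcripts of another gene. Such shares, here, above and below, are over whole transcripts. The stretch that the kit amplifies was not at hand, so they do not measure how many reads are ambiguous. The largest shares were those in common with UGT1A6 (39.6%), UGT1A8 (39.5%) and UGT1A10 (37.8%). UGT1A6 and UGT1A8 were not analysed here. UGT1A10, which had 0, 2 and 0 counts in doxorubicin and 0, 3, 0 and 1 in stretch, left the result at a log2 fold change of -2.33 when its counts were added.

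The UGT2B genes, which mainly conjugate steroids and bile acids, were absent or at the edge of detection in doxorubicin, and none was tested. In stretch UGT2B15 lay above the detection level in every library, at 1.07 to 2.58 CPM. UGT2B15, which conjugates androgens, had 5, 0 and 2 counts in doxorubicin and 8, 14, 12 and 24 in stretch, and UGT2B11 had 3, 2 and 1 against 2, 21, 9 and 7. UGT2B4 and UGT2B10 had 0 counts in all doxorubicin libraries and 8, 11, 3 and 5, and 6, 2, 1 and 3 counts, in stretch 4 to 7. In CPM these stretch levels were at most 1.18, below the detection level of doxorubicin 1 and 2, where a difference was not detectable at this depth. Doxorubicin 3, with a detection level of 0.567 CPM, could have shown the levels that UGT2B4 had in stretch 4 and 5 (1.07 and 1.18 CPM) and UGT2B10 in stretch 4 (0.801 CPM), and had 0 counts for both.

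Cytosolic glutathione transferases, which detoxify electrophiles, had no member past the threshold. Among 12 measured members 7 were tested, 6 on the doxorubicin side and 1, GSTZ1, on the stretch side, with a median log2 fold change of -0.23. GSTZ1 (chromosome 14, 77320884 to 77331597), the isomerase of tyrosine breakdown, stood at 9.93, 6.92 and 9.64 CPM in doxorubicin and 13.4, 27.4, 20 and 29.05 CPM in stretch. All stretch values lay above all doxorubicin values, with stretch 4 nearest to them. For GSTZ1 the log2 fold change was 1.32 (SE 0.38, adjusted p = 0.0812 by edgeR), and it passed by DESeq2 at an adjusted p of 0.0175 and, by edgeR, without doxorubicin 3 at 0.0265.

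GSTK1 (chromosome 7, 143244093 to 143270854), the mitochondrial and peroxisomal member, stood at 383, 366 and 235 CPM in doxorubicin and 209, 220.4, 217 and 191 CPM in stretch. The ranges did not overlap, with doxorubicin 3 close to stretch 5. Its log2 fold change was -0.65 (SE 0.29, adjusted p = 0.212 by edgeR). It passed only without doxorubicin 3, and its sign turned, to 0.18, when library totals alone were used for scaling. GSTO1, which reduces dehydroascorbate and arsenic species, stood at 48.8, 51.9 and 47.3 CPM against 61.0, 44.8, 39.2 and 45.8 CPM. Its log2 fold change was -0.05 with an SE of 0.28. GSTM3 stood at 17.5, 13.8 and 5.10 CPM in doxorubicin and 5.41 to 8.18 CPM in stretch, so that doxorubicin 1 and 2 were high and doxorubicin 3 was below the lowest stretch library. GSTA4, which conjugates the lipid peroxidation product hydroxynonenal, stood at 11.5, 0.865 and 14.0 CPM, with a single count in doxorubicin 2, against 6.10 to 10.3 CPM in stretch. GSTO2 had a log2 fold change of -0.23 and overlapped.

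GSTM4 and GSTM1 are neighbours in the mu cluster. Of the words of GSTM1 transcripts 61.1% stand in another gene, 43.8% in GSTM2 and 23.0% in GSTM4, and 10.4% of those of GSTM4 stand in GSTM1. GSTM4 had 12, 8 and 17 counts in doxorubicin and 15, 34, 14 and 0 in stretch. GSTM1 had 0 in all doxorubicin libraries and 0, 6, 19 and 32 in stretch 4 to 7, so that stretch 7 was at 0 for GSTM4 and highest for GSTM1. Their counts together were 12, 8 and 17 in doxorubicin and 15, 40, 33 and 32 in stretch, or 3.21 to 6.92 CPM against 2.003 to 4.28 CPM. The log2 fold change of GSTM4 was -1.37 (SE 0.85) by itself, -2.004 without stretch 5, and -0.47 with GSTM1 added. GSTA1, GSTA2, GSTM2 and GSTM2P1 were not tested, with mean levels of 0.752, 0.501, 0.815 and 0.114 CPM. GSTP1, GSTT1 and GSTT2 were not analysed here.

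The membrane-bound transferases, which belong to a separate protein family, lay on the stretch side in all 3 tested members, with none past the threshold. MGST1 (chromosome 12, 16347142 to 16609259), an abundant transferase and peroxidase of the endoplasmic reticulum and outer mitochondrial membrane, stood at 488, 117 and 465 CPM in doxorubicin 1, 2 and 3. In stretch 4 to 7 it stood at 601, 885, 1128 and 837 CPM, with no overlap and with doxorubicin 2 the lowest library. For MGST1 the log2 fold change was 1.27 (SE 0.48, adjusted p = 0.148 by edgeR), and 0.86 without doxorubicin 2. It passed only without doxorubicin 3, at an adjusted p of 0.0300 by edgeR. MGST2, which can make leukotriene C4, stood at 102, 68.3 and 50.7 CPM in doxorubicin and 50.6, 115, 106 and 104 CPM in stretch, where stretch 4 stood at the level of the lowest doxorubicin library. MGST3, with similar activity, stood at 172, 122 and 152 CPM against 122, 202, 236 and 164 CPM and overlapped. Their log2 fold changes were 0.35 (SE 0.37) and 0.28 (SE 0.32).

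Sulfotransferases had no member past the threshold, and none at an unadjusted p under 0.05. Among 7 measured members 4 were tested, 2 on each side. SULT1A3, which sulfates dopamine and other catecholamines, stood at 90.1, 39.8 and 91.1 CPM in doxorubicin and 105, 97.5, 71.8 and 88.8 CPM in stretch, with doxorubicin 2 low. Its near-identical copy SULT1A4 had 1, 53 and 4 counts in doxorubicin and 4 to 7 in stretch, and stood high only in doxorubicin 2, at 45.8 CPM. Of the words in SULT1A4 transcripts, 97.6% stand in those of SULT1A3, so that the split of reads between them is uncertain. Summed, the copies stood at 90.5, 85.6 and 91.9 CPM in doxorubicin and 106, 98.0, 72.5 and 89.4 CPM in stretch, and doxorubicin 2 no longer stood apart. The log2 fold change was 0.29 (SE 0.34) for SULT1A3 and 0.03 for the sum.

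SULT2B1, which sulfates cholesterol and hydroxysteroids, stood at 19.9, 25.9 and 12.9 CPM in doxorubicin and 16.8, 20.1, 17.1 and 17.6 CPM in stretch, with a log2 fold change of -0.09 (SE 0.33). SULT1B1, which sulfates thyroid hormone, stood at 9.13, 12.1 and 3.97 CPM against 4.14, 4.92, 1.62 and 3.87 CPM, with doxorubicin 3 inside the stretch range, and had a log2 fold change of -1.11 (SE 0.51). SULT1C2 had 1, 0 and 19 counts in doxorubicin and 18 to 30 in stretch. Its level in doxorubicin 3, 3.59 CPM, lay above the stretch range of 2.14 to 3.24 CPM, while the other doxorubicin libraries were below detection. The log2 fold change of SULT1C2 was 0.51 (SE 0.68), and without doxorubicin 3 it was 3.23 (adjusted p = 0.0262 by edgeR). That setting drops the only doxorubicin library in which SULT1C2 was detected, leaving 1 and 0 counts. It also called 32.2% of all genes, so the value is no sign of a difference in SULT1C2. SULT1A1 and SULT1A2, the phenol sulfotransferases, had at most 12 and 5 counts in any library.

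**Figure D4:**
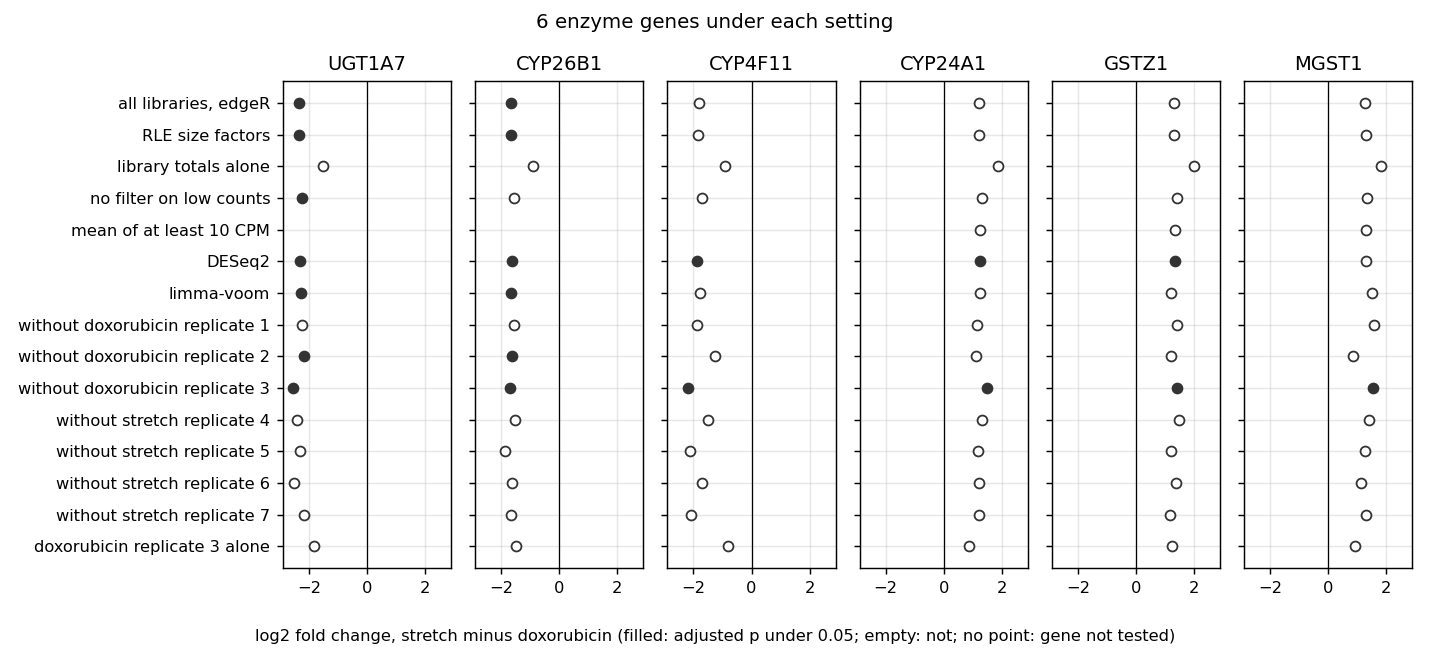
Log2 fold change, stretch minus doxorubicin (horizontal axis), of 6 enzyme genes under each processing setting (vertical axis, with all libraries by edgeR at the top). Points are filled where the adjusted p was under 0.05, and a gene left untested in a setting has no point. The points of each gene stay on one side of 0, those of UGT1A7 between -2.54 and -1.53, while the filling changes with the library left out.

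The genes that supply, assist and regulate these enzymes were described from 11 lists of 69 genes, of which 60 were in the table and 54 tested. None passed the threshold by edgeR or by limma-voom, which called 2.32% and 1.66% of all tested genes. DESeq2 called 7, where it called 10.03% of all genes it tested. At an unadjusted p under 0.05 edgeR had 13 of 54, or 24.1%, against 23.2% of all tested genes. Their median log2 fold change was 0.18, with 29 on the stretch side and 25 on the doxorubicin side. A total of 16 had ranges without overlap (29.6%, against 21.4% of all tested genes), 13 of them higher in stretch, where the share over all tested genes was 11.5%. These counts are a description, and no list was tested as a set.

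Genes of co-substrate supply, both enzymes and transporters, lay mostly on the stretch side, as did 5748 of all 11230 tested genes. For UDP-glucuronate all 4 tested did, with a median of 0.79, and for glutathione 4 of 6, with a median of 0.48. For the sulfate donor, 4 of 5 did, with a median of 0.43. UGDH, which makes UDP-glucuronate, stood at 230, 187 and 281 CPM in doxorubicin and 389, 408, 397 and 359 CPM in stretch, with no overlap, a log2 fold change of 0.74 (SE 0.29) and an adjusted p of 0.157 by edgeR. UGP2, the enzyme before it, stood at 168, 109 and 126 CPM against 138, 191, 152 and 187 CPM and overlapped. GCLC, the catalytic subunit of the first step of glutathione synthesis, stood at 28.6, 37.2 and 27.6 CPM in doxorubicin and 60.3, 69.3, 92.3 and 76.8 CPM in stretch, without overlap. Its log2 fold change was 1.27 (SE 0.30, adjusted p = 0.0517 by edgeR). GCLM and GSR, the modifier subunit of glutathione synthesis and the reductase that recycles glutathione, had log2 fold changes of 0.35 and -0.39. PAPSS1, which makes the sulfate donor, and SLC26A2, a sulfate carrier, had 0.43 and 0.19.

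Exporters of conjugates were ABCC1 to ABCC4, of which 3 lay on the stretch side and ABCC1 on the doxorubicin side. ABCC2, which pumps glutathione and glucuronide conjugates, stood at 106, 163 and 143 CPM in doxorubicin and 191, 349, 322 and 380.3 CPM in stretch. Its ranges did not overlap and its log2 fold change was 1.18 (SE 0.34, adjusted p = 0.0833 by edgeR). ABCC3 stood at 258, 284 and 301 CPM against 263, 456, 349 and 495 CPM, with overlap.

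Electron donors showed no common side, with 3 of 7 on the stretch side. POR, the reductase on which microsomal P450 enzymes depend, stood at 61.9, 82.1 and 50.5 CPM in doxorubicin and 70.2, 73.4, 61.2 and 77.7 CPM in stretch, with a log2 fold change of 0.13 (SE 0.28). CYB5B, the outer mitochondrial cytochrome b5, stood at 413, 213 and 611 CPM against 1277, 662, 748 and 615 CPM, with no overlap by a narrow margin and a log2 fold change of 0.998 (SE 0.42). CYB5A, its microsomal counterpart, had -0.09 (SE 0.29). Among hydrolases, EPHX1, the microsomal epoxide hydrolase, had 0.17, and CES2, a carboxylesterase that activates prodrugs, -1.75 (SE 0.55), or -0.92 without doxorubicin 2. CES2 stood at 63.9, 144 and 22.3 CPM in doxorubicin and 10.5, 25.9, 24.5 and 28.4 CPM in stretch, so that doxorubicin 3 lay within the stretch range. Of the methyl and acetyl transferases, AS3MT, which methylates arsenic, had 1.42, with 0 counts in doxorubicin 1, and 2.77 without doxorubicin 3. FMO5, the one flavin monooxygenase tested, had 0.41.

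Regulators of the aryl hydrocarbon pathway lay on the doxorubicin side in 4 of 5 tested genes. AHR, the receptor, stood at 98.5, 52.7 and 38.0 CPM in doxorubicin and 19.1, 26.9, 25.5 and 46.6 CPM in stretch, so that doxorubicin 3 lay within the stretch range. Its log2 fold change was -1.09 (SE 0.41, adjusted p = 0.146 by edgeR). Its partners ARNT and ARNT2 had -0.29 and -1.21, the latter -0.17 without doxorubicin 2. TIPARP, a target and inhibitor of AHR, had -0.27, and the repressor AHRR was not tested, at a mean of 1.09 CPM in doxorubicin and 0.435 CPM in stretch. Of the nuclear receptors and their partners, RXRA and PPARA had -0.44 and -0.61, and NR1I2 was not analysed here. NFE2L2, which codes NRF2, stood at 77.4, 81.3 and 52.2 CPM against 45.5, 44.7, 62.5 and 45.2 CPM and overlapped, with a log2 fold change of -0.50 (SE 0.29). KEAP1 stood at 33.8, 28.5 and 30.1 CPM against 42.2, 43.9, 41.6 and 49.4 CPM, without overlap, with 0.52 (SE 0.26, adjusted p = 0.257 by edgeR).

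**Figure D5:**
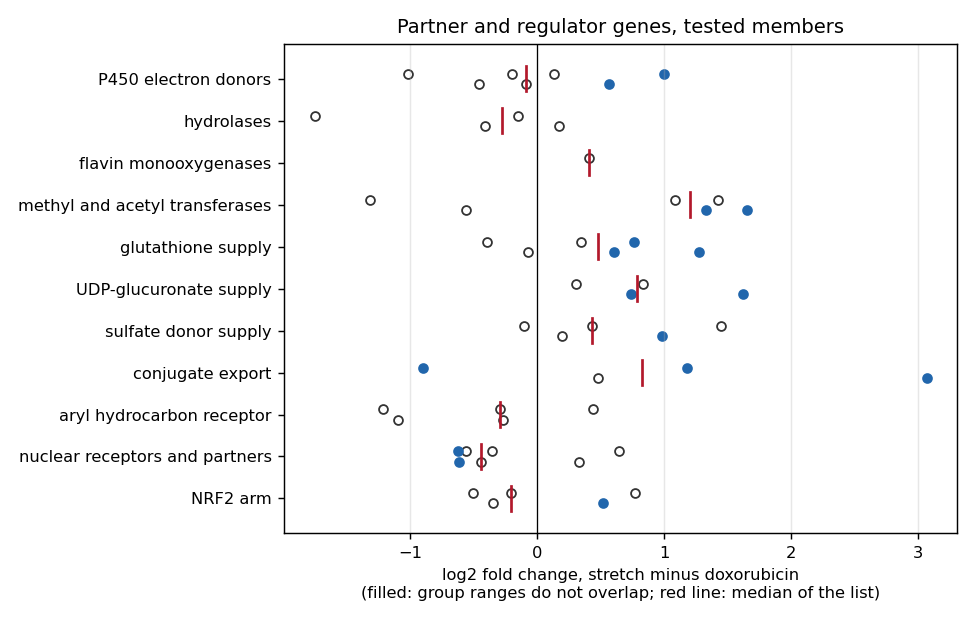
Log2 fold change, stretch minus doxorubicin (horizontal axis), of the 54 tested partner and regulator genes in 11 lists (vertical axis), 1 point a gene, filled where the group ranges do not overlap, with a red line at each list's median. The medians of UDP-glucuronate supply (0.79) and glutathione supply (0.48) lie right of 0 and that of the aryl hydrocarbon receptor list (-0.29) left of it, and no point passed an adjusted p of 0.05.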

How the data were processed

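RNA of 3 doxorubicin and 4 stretch libraries was measured by an Ion AmpliSeq kit, per the labels' protocols. The authors deposited 1 table of whole numbers, read here as rounded estimated counts of Salmon 1.9, which with fastp 0.20.1 and GRCh38 is named per the submitters' processing notes; for its annotation and settings no source was at hand. Reads carry no molecular identifiers, so PCR copies cannot be removed. All 7 columns were mapped by their names. Rows of the same symbol were summed (64 symbols), and 7 rows of Metazoa_SRP were left out.

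Groups were compared with edgeR 4.0.16 in R 4.3.3 (TMM factors, filterByExpr, robust quasi-likelihood fit over 11230 genes, Benjamini-Hochberg threshold 0.05); SE is the log2 fold change divided by the root of F. limma 3.58.1 and DESeq2 1.42.0 were alternatives. The test was tested on simulated data.

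The members and lists were chosen with earlier results of these data known. Named were members past the threshold, those without overlap at a mean of at least 10 CPM, the 5 of highest mean CPM in each family, the 2 highest of each partner list, and a short fixed list (such as CYP1A1, GSTP1, AHR and POR). Other members are given to account for the rest, apart from items that are not reported here, and VDR, GCLC, EIF4A2, KRT18, EPCAM, CD68, ABCC4, NNMT and NAT1 were named after their values were seen. Coordinates and transcript words are from GENCODE 29 (GRCh38), which matched all 56 members.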

Additional observations from a re-analysis of the deposited data

Results flagged for a closer look

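In 4 of 52 genes screened, 1 of the 4 stretch libraries stood far from the other three by Dixon's criterion, and chance flags about 1 in 20. MGST2 stood at 50.6 CPM in stretch 4, against 104.0 to 114.6 CPM in the others. GSTO2 stood at 4.60 CPM in stretch 5, against 2.40 to 2.70 CPM. NFE2L2 stood at 62.5 CPM in stretch 6, against 44.7 to 45.5 CPM, and ARNT at 66.5 CPM in stretch 7, against 72.0 to 73.0 CPM.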

How the results depend on the processing

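No paired analysis was possible because the groups share no replicate number. The alternatives were TMM against RLE factors or library totals alone, 2 other filters, DESeq2, limma-voom, each library left out in turn, and doxorubicin 3 as the only doxorubicin library, where that group has no spread of its own and is assumed to vary like stretch. Genes called over the whole table numbered 13 on library totals, 143 at a mean of at least 10 CPM, 1315 by DESeq2, 99 with doxorubicin 3 alone, and 12 to 3736 with a library left out. Enzymes higher in doxorubicin numbered 0 on library totals, 1 without a filter, 0 at a mean of at least 10 CPM (where UGT1A7 and CYP26B1 were not tested), 4 by DESeq2, 0 with doxorubicin 3 alone, and 0 to 6 with a library left out. Enzymes higher in stretch numbered 2 by DESeq2 and 0 to 4 with a library left out. The enzymes' median log2 fold change was 0.67 on library totals, 0.0071 without a filter, 0.13 at a mean of at least 10 CPM, 0.010 with doxorubicin 3 alone, and -0.13 to 0.063 with a library left out. Partner genes called numbered 2 without a filter (ABCC4 and GCLC), 7 by DESeq2, and 0 to 16 with a library left out. The highest counts, 3736, 6, 4 and 16, all came without doxorubicin 3. UGT1A7 passed in 7 of 14 alternatives (adjusted p 7.15e-05 to 0.146) and CYP26B1 in 5 of 13 (0.00162 to 0.234), with the direction kept in each; CYP24A1, GSTZ1, MGST1 and CYP4F11 also kept theirs. Log2 fold changes that turned sign, none of them past the threshold with all libraries, were on library totals ARNT 0.57, CYB5A 0.70, CYP2S1 0.67, CYP2U1 0.23, CYP4V2 0.52, GSR 0.56, GSTA4 0.43, GSTK1 0.18, GSTM3 0.059, GSTO1 0.71, GSTO2 0.42, NFE2L2 0.32, PPARA 0.12, RXRA 0.45, SULT2B1 0.76 and TIPARP 0.39. Without a filter they were CYB5A 0.0077, GSTO1 0.045 and SULT2B1 0.0071, and by limma-voom CYP4F12 -0.054, GSTA4 0.11 and SULT2B1 0.025. With doxorubicin 3 alone they were ARNT 0.25, ARNT2 0.77, CES2 0.020, CYB5A 0.19, CYP20A1 -0.20, CYP2S1 0.45, CYP2U1 0.46, CYP4F12 -0.47, GSR 0.56, GSTM3 0.40, GSTO1 0.029, PAPSS1 -0.062, RXRA 0.14, SULT1C2 -0.44 and SULT2B1 0.49. With a library left out, the values ranged for CYB5A from -0.20 to 0.0058, CYP20A1 from -0.0073 to 0.48, CYP2S1 from -0.34 to 0.18, CYP4F12 from -0.17 to 0.61, CYP4V2 from -0.32 to 0.15, EPHX1 from -0.13 to 0.48, GSR from -0.67 to 0.018, GSTA4 from -0.54 to 0.32, GSTO1 from -0.19 to 0.033 and SULT2B1 from -0.30 to 0.16. The cause of these changes was not tested. Summing SULT1A3 with SULT1A4, UGT1A7 with UGT1A10 and GSTM4 with GSTM1 was chosen after seeing the data. In simulated counts for this comparison, over 11547 genes, the test recovered 2% of genes changed 2-fold and 60% of those changed 4-fold. It recovered 96% at 8-fold and 98.0% at 16-fold, so that differences of 2-fold were rarely detectable in this simulation. The simulation kept the depth and number of libraries, but gave each gene the same spread in both groups. In the data the doxorubicin libraries were less alike (correlations of 0.754 to 0.884) than the stretch libraries (0.939 to 0.978). At most 50 tested genes were changed at each fold and all others left unchanged, so recovery in the data may differ. The parts of depth, number of libraries and spread in this were not tested.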

Other observations

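Members listed at 0 differed in number between libraries of unequal depth: 9, 15 and 7 of 56 in doxorubicin 1, 2 and 3, and 7, 2, 6 and 4 in stretch 4 to 7. Counts of at least 3 in all 7 libraries were found for 24 members.

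Among partner genes chosen after their values were seen, ABCC4, an exporter of conjugates and cyclic nucleotides, stood at 1.19, 0 and 3.40 CPM in doxorubicin and 4.67, 14.8, 24.9 and 23.8 CPM in stretch. Its log2 fold change was 3.07 (SE 0.75, adjusted p = 0.0566 by edgeR), and the ranges did not overlap. NNMT, which methylates nicotinamide, stood at 25.8, 3.46 and 28.5 CPM against 47.4, 63.2, 74.8 and 68.6 CPM, with 1.65 (SE 0.51, adjusted p = 0.0971 by edgeR). NAT1, an arylamine acetyltransferase, stood at 8.34, 1.73 and 9.07 CPM against 2.67, 2.03, 2.92 and 3.44 CPM, where doxorubicin 2, with few counts, lay below the stretch range.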
